A study of Homo sapiens with 18 samples.

Results

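The 10 genes described here encode proteins that ERK, the kinase at the end of the RAS-RAF-MEK-ERK cascade, is known to induce and that shape its own signal. They were taken by symbol from a gene-level count table, as 10 of its 28278 symbols: DUSP1, DUSP4, DUSP5, DUSP6, SPRY2, SPRY4, SPRED1, SPRED2, ETV4 and ETV5. All 10 passed the filter on low counts, with 356 to 2505 counts in each library, and were tested among 15353 genes. The libraries were made from LX-2, an established line of human hepatic stellate cells, the liver cells that deposit scar matrix. The 6 groups were thrombin at 1 U/mL for 4 h, its control in serum-free medium for 4 h, thrombin for 24 h, its control at 24 h, thrombin for 48 h and its control at 48 h, with 3 libraries each. Cells of every group had been plated for 48 h and then kept in serum-free medium for 1 h before stimulation. The libraries of a group carry the numbers 12, 13 and 14 in their titles. The sources used here do not say whether these are separate cultures. The p-values set differences between groups against the spread between libraries of a group, and that spread may be technical only. LX-2 is 1 cell line and stands for stellate cells only as such.

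When a growth factor receptor, or a G protein-coupled receptor such as the thrombin receptor PAR1, activates RAS, the kinases RAF, MEK and ERK are activated in turn, and ERK enters the nucleus and raises the transcription of early target genes. Among those genes are inhibitors of the cascade itself: dual-specificity phosphatases remove phosphate from MAP kinases, and Sprouty and SPRED proteins act further up, at the level of RAS and RAF. ETV4 and ETV5 are ETS transcription factors of the PEA3 subfamily, which are known as transcriptional outputs of the same cascade, and in stellate cells ERK signalling is known for its part in proliferation after injury.

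The 300-base promoter windows (250 bases before to 50 after the annotated start, RefSeq, GRCh38.p14) are shown for 3 genes, because they hold a match to an element through which growth signals are known to act. Windows of 6 of the 10 genes were used here (DUSP1, DUSP6, SPRY2, SPRY4, SPRED1 and SPRED2). Both strands were searched for the cAMP response element (TGACGTCA), the AP-1 site (TGANTCA), the ETS site (CGGAAG) and the CArG box bound by SRF. Capitals mark the match, and an ETS site on the other strand reads CTTCCG.

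DUSP1, chr5:172771146-172771445, minus strand, with 1 cAMP response element: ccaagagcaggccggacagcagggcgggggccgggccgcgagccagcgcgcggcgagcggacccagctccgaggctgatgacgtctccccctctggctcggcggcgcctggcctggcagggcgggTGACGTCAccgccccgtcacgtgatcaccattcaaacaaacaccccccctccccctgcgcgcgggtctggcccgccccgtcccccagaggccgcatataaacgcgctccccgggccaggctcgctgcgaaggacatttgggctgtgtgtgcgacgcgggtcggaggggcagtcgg

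DUSP6, chr12:89352452-89352751, minus strand, with 1 ETS site: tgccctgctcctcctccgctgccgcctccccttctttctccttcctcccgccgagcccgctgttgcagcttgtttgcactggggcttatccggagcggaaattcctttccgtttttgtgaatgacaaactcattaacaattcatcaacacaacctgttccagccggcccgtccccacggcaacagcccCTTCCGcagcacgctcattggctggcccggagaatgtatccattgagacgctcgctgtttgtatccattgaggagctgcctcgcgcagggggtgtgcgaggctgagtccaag

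SPRED2, first of its windows, chr2:65432550-65432849, minus strand, with 1 ETS site: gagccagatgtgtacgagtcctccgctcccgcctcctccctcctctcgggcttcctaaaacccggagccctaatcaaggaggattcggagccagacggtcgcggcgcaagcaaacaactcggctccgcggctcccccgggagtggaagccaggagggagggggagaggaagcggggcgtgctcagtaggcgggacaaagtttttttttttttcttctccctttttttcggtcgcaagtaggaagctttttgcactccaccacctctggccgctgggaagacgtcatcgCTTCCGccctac

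Of 35116 promoter windows in the table, 1.85% held the cAMP response element, 7.71% the AP-1 site, 19.5% the ETS site and 1.29% the CArG box. None of the matches in these 3 windows overlapped another of the motifs. The windows of SPRY2, SPRY4 and SPRED1 had no match to any of the 4 motifs, and the other SPRED2 window had AP-1 matches. A match describes the letters of the window and was not tested as a binding site.

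Library totals ranged from 14431044 to 23270601 counts. The stellate cell markers summed to 6816 to 8083 CPM (counts scaled to a common library size) in the 18 libraries, led by VIM and COL1A1. The retinoid enzyme gene LRAT, a marker of quiescent stellate cells, averaged 0.222 CPM. CPM in this paragraph lack the TMM scaling factors, which CPM in later paragraphs include unless stated. Hepatocyte markers summed to 3.37 to 6.48 CPM, most of it SERPINA1 at 3.37 to 6.23 CPM. TTR was at 0 in every library and ALB at no more than 0.128 CPM. The endothelial list summed to 15.4 to 30.1 CPM, the macrophage list to 68.0 to 100.3 CPM, most of it CD68, and the cholangiocyte list to 129 to 271 CPM, most of it SOX9, with EPCAM at no more than 0.205 CPM. The libraries labelled thrombin 4 h differed from those labelled control 24 h in 11 of 15353 genes (0.0716%), and none of the 10 genes was among them, or at an unadjusted p under 0.05 or called by DESeq2: their log2 fold changes between these groups ran from -0.23 for DUSP5 to 0.08 for ETV5. In the same way thrombin 24 h and control 4 h differed in 513 genes (3.34%), again with none of the 10. Whether labels were exchanged among the 4 h and 24 h groups was not tested; an exchange of thrombin and control at 1 time and effects of opposite sign at the 2 times cannot be told apart here. Such an exchange would turn the sign of the thrombin effects at that time and change the difference between times. Groups are named as labelled, and every direction below rests on those labels. In bulk libraries, fewer cells of a type and less RNA per cell cannot be told apart.

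Per kilobase of merged exon (GENCODE v29, GRCh38), DUSP5 and DUSP1 were the most abundant of the 10, averaging 25.5 and 22.7 CPM per kb over all libraries. DUSP6 followed with 16.8 CPM per kb. SPRED2 (12.4 CPM per kb), ETV5 (11.6), ETV4 (11.5) and SPRY2 (11.3) lay close together, and SPRED1 (7.67), DUSP4 (7.60) and SPRY4 (5.87) were the least abundant. The RefSeq annotation, which also gave the gene coordinates here and below, places a second transcript over 4 of these genes. ETV4 (chr17:43527846-43546340) overlaps the helicase gene DHX8, which had 1858 to 2833 counts per library, and SPRY4 (chr5:142310430-142325021) contains the non-coding RNA SPRY4-IT1, with 3 to 25 counts. DUSP6 (chr12:89347235-89352501) shares sequence with the readthrough transcript POC1B-DUSP6, and ETV5 (chr3:186046314-186109089) with ETV5-AS1. How the counting treated strand is not stated in the labels or processing notes, so the levels of these 4 genes are uncertain to that extent. The order of all 10 genes also depends on how reads were assigned to genes, which is not stated either.

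DUSP1 had the smallest adjusted p of the 10 genes at 4 h and at 24 h: its level in thrombin was lower than in control at 4 h and higher at 24 h. At 4 h, DUSP1 fell and ETV4 rose in the thrombin libraries, so that 2 of the 10 genes were called (edgeR quasi-likelihood test, Benjamini-Hochberg adjusted p under 0.05), against 11.8% of all genes tested (6.29% higher and 5.52% lower). At 24 h, DUSP1 and SPRED1 rose and ETV5 fell, which is 3 of 10 genes called against 17.6% of all genes (9.05% higher and 8.54% lower). At 48 h none of the 10 was called by edgeR or DESeq2, and 1 of them had an unadjusted p under 0.05; of all 15353 genes edgeR called 0 (0%) and DESeq2 14, with 1110 at an unadjusted p under 0.05. The median log2 fold change of the 10 genes was -0.17 at 4 h, -0.04 at 24 h and 0.13 at 48 h, beside medians of -0.00, 0.00 and 0.01 over all genes tested.

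**Figure D1:**
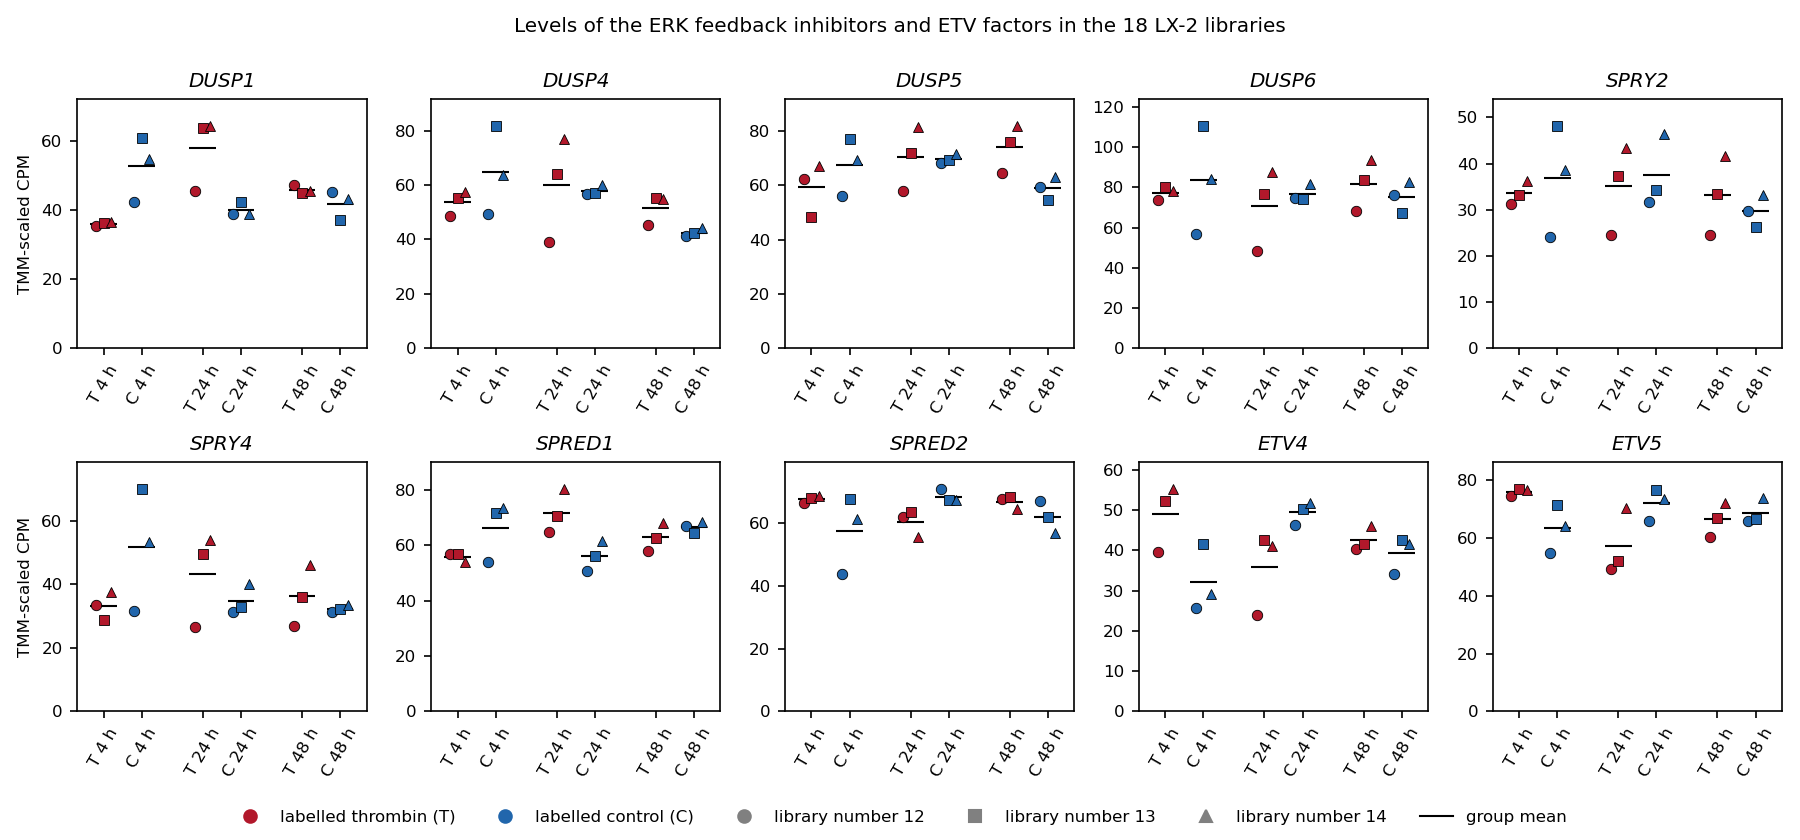
TMM-scaled CPM of each of the 10 genes in every library, with thrombin left of control at 4, 24 and 48 h; points are libraries (shapes mark the numbers 12, 13 and 14) and short lines are group means. DUSP1 sits between 35.5 and 36.5 CPM in thrombin 4 h, below all 3 control 4 h libraries, and between 45.7 and 64.5 CPM in thrombin 24 h, above all 3 control 24 h libraries.

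Marker genes moved in the same comparisons. In these, 6.29% of all genes tested were called higher and 5.52% lower at 4 h, and 9.05% higher and 8.54% lower at 24 h. Of the 11 stellate cell markers tested, 2 were called lower at 4 h and 6 higher at 24 h; RELN, for one, measured 12.7 ± 1.66 CPM in thrombin 24 h and 1.19 ± 0.687 CPM in control 24 h (3.38 ± 0.36 on the log2 scale, edgeR adjusted p = 8.17e-07), and ACTA2, the myofibroblast actin, 17.6 ± 1.72 and 10.8 ± 1.02 CPM (0.71 ± 0.14, edgeR adjusted p = 0.000544). Of 6 endothelial markers, none was called at 4 h, and 2 were called higher (CDH5 and KDR) and 1 lower (PECAM1) at 24 h. Of 3 cholangiocyte markers tested, KRT7 was called higher at 24 h, and no hepatocyte or macrophage marker was called at either time. Their part in the results of the 10 genes was not tested.

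DUSP1 (chr5:172768096-172771195) encodes an inducible nuclear phosphatase that inactivates ERK, JNK and p38. At 4 h it measured 35.5, 36.3 and 36.5 CPM in thrombin, against 42.3, 61.0 and 54.9 CPM in control (numbers 12, 13 and 14 in that order, here and below). At 24 h it measured 45.7, 63.9 and 64.5 CPM in thrombin, against 39.0, 42.3 and 39.0 CPM in control. At both times the groups did not overlap, all thrombin libraries being lower at 4 h and all higher at 24 h. The log2 fold change was -0.55 ± 0.12 at 4 h (SE, edgeR adjusted p = 0.00372) and 0.53 ± 0.12 at 24 h (edgeR adjusted p = 0.00272). At 48 h DUSP1 measured 47.4, 45.0 and 45.5 CPM in thrombin and 45.3, 37.2 and 43.2 CPM in control, groups that overlapped (log2 fold change 0.13 ± 0.12, edgeR adjusted p = 0.823). Both calls held when any single library was left out, with edgeR adjusted p of at most 0.0449 at 4 h and 0.0276 at 24 h. Both were lost without all 6 number 13 libraries (-0.43, edgeR adjusted p = 0.225, at 4 h and 0.49, edgeR adjusted p = 0.0680, at 24 h) and without all 6 number 14 libraries (-0.53, edgeR adjusted p = 0.0805, and 0.43, edgeR adjusted p = 0.105). In the order of its group means, thrombin 24 h stood first and thrombin 4 h last, and every neighbouring pair overlapped except the last, control 24 h over thrombin 4 h.

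DUSP4, a nuclear phosphatase of ERK and JNK, was not called at any time. It measured 48.6, 55.2 and 57.3 CPM in thrombin 4 h, against 49.5, 81.7 and 63.6 CPM in control 4 h. In thrombin 24 h it measured 39.1, 64.2 and 77.1 CPM, against 56.7, 57.0 and 60.2 CPM in control 24 h. The log2 fold changes were -0.28 ± 0.18 at 4 h and 0.06 ± 0.19 at 24 h (edgeR adjusted p = 0.361 and 0.873). Thrombin 24 h held both the lowest DUSP4 library of that time and the highest, and control 24 h lay within a narrow band between them. At 48 h all thrombin libraries (45.2, 55.1 and 54.8 CPM) were above all control libraries (41.1, 42.3 and 44.1 CPM), a log2 difference of 0.28 ± 0.19 (edgeR adjusted p = 0.766).

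DUSP5 (chr10:110497907-110511533), a nuclear phosphatase specific for ERK, had 62.4, 48.4 and 67.1 CPM in thrombin 4 h and 56.0, 76.9 and 69.2 CPM in control 4 h. It had 58.0, 71.8 and 81.6 CPM in thrombin 24 h and 68.3, 69.3 and 71.4 CPM in control 24 h. The groups overlapped at both times, with log2 fold changes of -0.19 ± 0.13 at 4 h and 0.02 ± 0.13 at 24 h (edgeR adjusted p = 0.374 and 0.943). At 48 h the thrombin libraries had 64.5, 76.1 and 81.9 CPM, all above the control libraries with 59.2, 54.6 and 63.1 CPM, a log2 fold change of 0.33 ± 0.13. That was the largest thrombin difference among the 10 genes at 48 h and the one with an unadjusted p under 0.05, and it was not called (edgeR adjusted p = 0.598). At 48 h the groups did not overlap for 2 of the 10 genes, DUSP4 and DUSP5, and for 14.2% of all genes tested.

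DUSP6, the cytoplasmic ERK phosphatase and the ERK-specific member best known as a readout of the pathway, showed no called difference. It measured 73.8, 80.0 and 77.9 CPM in thrombin 4 h, against 56.7, 110.5 and 84.3 CPM in control 4 h. It measured 48.1, 76.8 and 87.6 CPM in thrombin 24 h, against 74.9, 74.2 and 81.7 CPM in control 24 h, and 68.4, 83.7 and 93.6 CPM in thrombin 48 h, against 76.3, 67.3 and 82.5 CPM in control 48 h. The groups overlapped at every time. The log2 fold changes were -0.12 ± 0.21, -0.12 ± 0.21 and 0.12 ± 0.21 at 4, 24 and 48 h (edgeR adjusted p = 0.763, 0.752 and 0.925). Control 4 h alone held the highest DUSP6 library of all 18, number 13, and the second lowest, number 12.

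The Sprouty genes were called at no time in the main edgeR fit of all libraries. SPRY2 (chr13:80335976-80341126), an inhibitor of receptor tyrosine kinase signalling to RAS, measured 31.3, 33.2 and 36.3 CPM in thrombin 4 h and 24.1, 48.1 and 38.7 CPM in control 4 h. At 24 h it measured 24.5, 37.3 and 43.3 CPM in thrombin and 31.7, 34.3 and 46.4 CPM in control. Its groups overlapped, also at 48 h, where thrombin had 24.6, 33.5 and 41.6 CPM and control 29.6, 26.3 and 33.1 CPM, and its log2 fold changes were -0.15 ± 0.25, -0.10 ± 0.25 and 0.16 ± 0.26 at 4, 24 and 48 h (edgeR adjusted p = 0.760, 0.835 and 0.911).

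SPRY4, a Sprouty that acts on RAF activation, had 33.6, 28.6 and 37.4 CPM in thrombin 4 h, against 31.5, 69.9 and 53.3 CPM in control 4 h. Its log2 fold change of -0.64 ± 0.29 was the largest of the 10 at 4 h, but the number 12 control library lay inside the thrombin range and the difference was not called (edgeR adjusted p = 0.169). At 24 h it had 26.6, 49.5 and 53.8 CPM in thrombin, against 31.2, 32.7 and 40.1 CPM in control (0.32 ± 0.29, edgeR adjusted p = 0.492). The number 12 library was below every control library, and the other thrombin libraries were above them. At 48 h it had 26.8, 36.0 and 46.0 CPM in thrombin, against 31.1, 32.3 and 33.4 CPM in control. Leaving out the number 12 control 4 h library alone turned SPRY4 at 4 h into a call (-0.90, edgeR adjusted p = 0.0264). With all libraries, the fit with no filter on low counts called it at 4 h (edgeR adjusted p = 1.61e-07).

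The SPRED genes encode membrane-bound inhibitors of RAF activation that work with the RAS GTPase-activating protein neurofibromin. SPRED1 (chr15:38252836-38357249) measured 56.7, 56.9 and 54.2 CPM in thrombin 4 h, against 53.8, 71.7 and 73.6 CPM in control 4 h. At 24 h it measured 64.7, 70.5 and 80.4 CPM in thrombin, all above the 50.6, 56.3 and 61.7 CPM in control, a rise of 0.36 ± 0.11 (edgeR adjusted p = 0.0210). At 48 h it measured 58.0, 62.6 and 68.2 CPM in thrombin and 67.0, 64.6 and 68.4 CPM in control, which overlapped. The rise at 24 h was not called without the control 24 h library 12 (0.29, edgeR adjusted p = 0.126), the control 24 h library 13 (0.36, edgeR adjusted p = 0.0628) or the thrombin 24 h library 14 (0.27, edgeR adjusted p = 0.147). At 4 h, SPRED1 was called lower without the control 4 h library 12 (-0.38, edgeR adjusted p = 0.0126), against -0.25 ± 0.11 with it (edgeR adjusted p = 0.130).

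SPRED2 (chr2:65307175-65432599) showed small differences of the opposite sign to those of SPRED1. It measured 66.6, 68.0 and 68.7 CPM in thrombin 4 h, against 43.8, 67.8 and 61.3 CPM in control 4 h (0.23 ± 0.11, edgeR adjusted p = 0.167). It measured 62.0, 63.5 and 55.8 CPM in thrombin 24 h, all below the 71.0, 67.4 and 67.3 CPM in control 24 h (-0.18 ± 0.11, edgeR adjusted p = 0.268). Neither was called, and the thrombin and control libraries overlapped at 4 h by the number 13 control library alone. Without that library the difference at 4 h was called (0.37, edgeR adjusted p = 0.0462). At 48 h SPRED2 had 67.7, 68.4 and 64.7 CPM in thrombin and 67.3, 62.0 and 56.9 CPM in control.

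ETV4, a PEA3-subfamily activator, had 39.7, 52.3 and 55.3 CPM in thrombin 4 h, against 25.6, 41.6 and 29.2 CPM in control 4 h. This was a rise of 0.60 ± 0.19 on the log2 scale (edgeR adjusted p = 0.0459), although the number 12 thrombin library lay below the number 13 control library. At 24 h ETV4 had 23.9, 42.5 and 41.2 CPM in thrombin, all below the 46.4, 50.4 and 51.8 CPM in control (-0.46 ± 0.19, edgeR adjusted p = 0.105, not called). The fit with no filter on low counts called it (-0.47, edgeR adjusted p = 0.000275). The number 12 library was the lowest of its group for ETV4 in all 6 groups. At 48 h it had 40.3, 41.6 and 46.0 CPM in thrombin and 34.2, 42.7 and 41.6 CPM in control, which overlapped. The call at 4 h was lost without the control 4 h library 12 (0.46, edgeR adjusted p = 0.136), the control 4 h library 14 (0.54, edgeR adjusted p = 0.146), the thrombin 4 h library 13 (0.55, edgeR adjusted p = 0.136) or the thrombin 4 h library 14 (0.51, edgeR adjusted p = 0.181).

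ETV5, the close relative of ETV4, had 74.6, 77.0 and 76.7 CPM in thrombin 4 h, all above the 54.9, 71.4 and 64.2 CPM in control 4 h, without being called (0.26 ± 0.11, edgeR adjusted p = 0.135). At 24 h it had 49.3, 52.2 and 70.6 CPM in thrombin, against 66.0, 76.7 and 73.6 CPM in control, and it fell by 0.33 ± 0.11 on the log2 scale (edgeR adjusted p = 0.0464). The number 14 thrombin library lay within the control range. At 48 h it had 60.5, 67.0 and 72.2 CPM in thrombin and 65.8, 66.6 and 73.9 CPM in control. The fall at 24 h was not called without the control 24 h library 13 (-0.28, edgeR adjusted p = 0.170), the control 24 h library 14 (-0.31, edgeR adjusted p = 0.103), the thrombin 24 h library 12 (-0.23, edgeR adjusted p = 0.215) or the thrombin 24 h library 13 (-0.26, edgeR adjusted p = 0.160). Over all 10 genes the groups did not overlap for DUSP1 and ETV5 at 4 h and for DUSP1, SPRED1, SPRED2 and ETV4 at 24 h, where 25.8% and 34.1% of all genes tested had groups that did not overlap.

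No single group was the highest for all of the genes. By group mean, thrombin 24 h was the highest for DUSP1 and SPRED1, control 4 h for DUSP4, DUSP6 and SPRY4, control 24 h for SPRY2, SPRED2 and ETV4, thrombin 48 h for DUSP5 and thrombin 4 h for ETV5. When the 6 groups of a gene were put in order of their means, the libraries of each group overlapped those of the next for every gene, apart from the last pair of DUSP1 and the last pair of DUSP4 (thrombin 48 h over control 48 h).

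**Figure D2:**
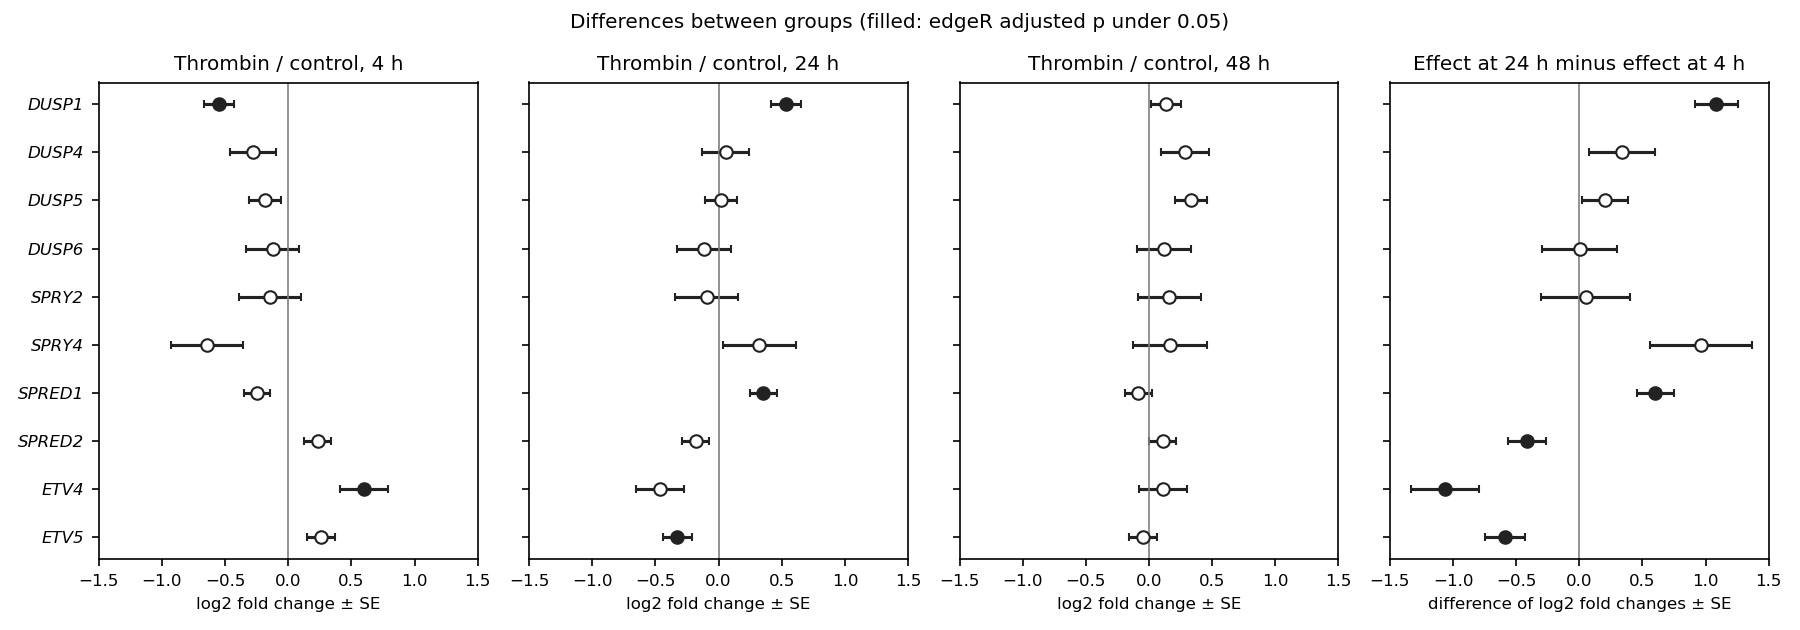
Log2 fold change of thrombin over control for each gene at 4, 24 and 48 h, and the effect at 24 h minus that at 4 h in the panel on the right, with error bars of 1 SE from the edgeR fit; filled points are called. DUSP1 lies at -0.55 at 4 h and 0.53 at 24 h, ETV4 at 0.60 and -0.46, and no point is filled at 48 h.

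The difference between the thrombin effects at 24 h and at 4 h was tested directly. It was called for 5 of the 10 genes, against 28% of all genes tested (13.6% higher and 14.3% lower): higher at 24 h for DUSP1 (1.08 ± 0.17, edgeR adjusted p = 3.36e-05) and SPRED1 (0.60 ± 0.15, edgeR adjusted p = 0.00373), and lower for ETV4 (-1.06 ± 0.27, edgeR adjusted p = 0.00625), ETV5 (-0.59 ± 0.16, edgeR adjusted p = 0.00731) and SPRED2 (-0.41 ± 0.15, edgeR adjusted p = 0.0438). So the thrombin effects on the phosphatase gene DUSP1 and the RAF inhibitor gene SPRED1 moved one way between these times. The effects on the ETS factor genes and SPRED2 moved the other way. SPRY4, at 0.96 ± 0.41, missed the threshold (edgeR adjusted p = 0.0952), and the differences of DUSP4, DUSP5, DUSP6 and SPRY2 ran from 0.00 to 0.33. Leaving out any 1 of the 12 libraries kept the calls of DUSP1, SPRED1, ETV4 and ETV5. Leaving out all libraries of number 13 ended those of SPRED1 (0.56, edgeR adjusted p = 0.115) and ETV5 (-0.57, edgeR adjusted p = 0.106), and leaving out number 14 those of SPRED1 (0.49, edgeR adjusted p = 0.0628) and ETV4 (-0.98, edgeR adjusted p = 0.0737).

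The SPRED2 difference was lost without any of 8 of those libraries. Its value was -0.25 without the control 4 h library 12 (edgeR adjusted p = 0.120), -0.41 and -0.40 without the thrombin 4 h libraries 13 and 14 (0.0733 and 0.0797), -0.39, -0.43 and -0.43 without the control 24 h libraries 12, 13 and 14 (0.0931, 0.0669 and 0.0557), and -0.43 and -0.36 without the thrombin 24 h libraries 12 and 14 (0.0521 and 0.116). SPRY4 was called without the control 4 h library 12 (1.22, edgeR adjusted p = 0.0129) or the thrombin 24 h library 12 (1.22, edgeR adjusted p = 0.0196), and DUSP4 without that thrombin 24 h library (0.57, edgeR adjusted p = 0.0272).

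Against the effect at 48 h, none of the 10 was called by edgeR in the difference of 48 h minus 24 h (13.8% of all genes) or of 48 h minus 4 h (0.632% of all genes). In each of these, 3 of the 10 had an unadjusted p under 0.05 and DESeq2 called 1. The largest differences there were 0.57 ± 0.27 for ETV4 in 48 h minus 24 h, and 0.81 ± 0.41 for SPRY4 and 0.68 ± 0.17 for DUSP1 in 48 h minus 4 h. Nearest the threshold in 48 h minus 24 h was SPRED1 (-0.44 ± 0.15, edgeR adjusted p = 0.0505). In 48 h minus 4 h it was DUSP1 (edgeR adjusted p = 0.0603).

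Without thrombin, 2 of the 10 genes differed between control 24 h and control 4 h, against 15.2% of all genes. DUSP1 was lower in control 24 h (40.1 ± 1.89 CPM, SD, n = 3) than in control 4 h (52.7 ± 9.52 CPM), a log2 ratio of -0.40 ± 0.12 (edgeR adjusted p = 0.0265). ETV4 was higher in control 24 h (49.5 ± 2.78 CPM) than in control 4 h (32.1 ± 8.40 CPM), by 0.62 ± 0.19 (edgeR adjusted p = 0.0352). Each of these calls was lost in turn without 5 of the 6 libraries. For DUSP1 the values were -0.27 and -0.37 without the control 4 h libraries 13 and 14 (edgeR adjusted p = 0.187 and 0.0867) and -0.38, -0.44 and -0.38 without the control 24 h libraries 12, 13 and 14 (edgeR adjusted p = 0.0948, 0.0508 and 0.0709). For ETV4 they were 0.47 and 0.55 without the control 4 h libraries 12 and 14 (edgeR adjusted p = 0.114 and 0.118) and 0.66, 0.60 and 0.58 without the control 24 h libraries 12, 13 and 14 (edgeR adjusted p = 0.0699, 0.0904 and 0.0869).

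Within thrombin, 3 of the 10 genes differed between 24 h and 4 h, against 15.1% of all genes. DUSP1 rose to 58.0 ± 10.7 CPM in thrombin 24 h, against 36.1 ± 0.549 CPM in thrombin 4 h (0.69 ± 0.12, edgeR adjusted p = 0.000248), in all 6 fits that left out 1 library. SPRED1 was higher by 0.36 ± 0.11 (edgeR adjusted p = 0.0202) and ETV5 lower by -0.41 ± 0.11 (edgeR adjusted p = 0.0150). The SPRED1 call was lost without the thrombin 4 h library 13 (0.37, edgeR adjusted p = 0.0545), the thrombin 4 h library 14 (0.34, edgeR adjusted p = 0.0806) or the thrombin 24 h library 14 (0.27, edgeR adjusted p = 0.143), and the ETV5 call without the thrombin 4 h library 13 (-0.40, edgeR adjusted p = 0.0522) or the thrombin 24 h libraries 12 (-0.31, edgeR adjusted p = 0.102) or 13 (-0.34, edgeR adjusted p = 0.0668). None of the 10 was called between control 48 h and control 24 h (6.12% of all genes) or thrombin 48 h and thrombin 24 h (9.72%) by edgeR or DESeq2, with 2 and 1 at an unadjusted p under 0.05. These comparisons share groups with those above, so their values are the same libraries seen from another side.

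The spread between libraries of the same group was wide for several of the 10 genes. The within-group SD of log2 CPM was 0.381 for SPRY4, 0.343 for SPRY2, 0.295 for DUSP6, 0.276 for ETV4 and 0.268 for DUSP4. Each of these exceeded the SD of at least 99.0% of the tested genes whose mean level lay within 0.5 on the log2 scale, whose median SD was 0.114 to 0.126. DUSP5 (0.191), DUSP1 (0.174), ETV5 (0.159), SPRED2 (0.151) and SPRED1 (0.144) exceeded 93.8%, 88.7%, 84.5%, 78.7% and 73.1% of such genes. Between its lowest and highest library, SPRY4 varied 2.62-fold, ETV4 2.31-fold and DUSP6 2.30-fold, against 1.82-fold for DUSP1.

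**Figure D3:**
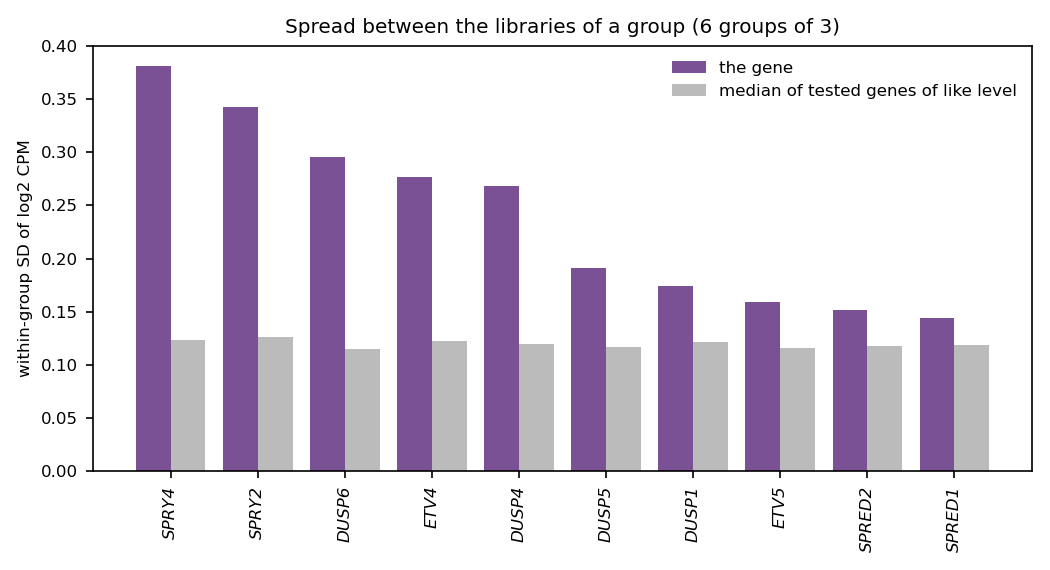
Within-group SD of log2 CPM over the 6 groups of 3 libraries for each gene (purple), beside the median SD of tested genes within 0.5 log2 of its mean level (grey). SPRY4, SPRY2 and DUSP6 stand at 0.381, 0.343 and 0.295, above grey bars of 0.114 to 0.126.

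Within a group the same library was often the low one for many of the genes. The number 12 library was the lowest of its group for 10 of the 10 genes in control 4 h, where it was the lowest for 40.3% of all genes tested, and for 9 of 10 in thrombin 24 h, against 36.5% of all genes. It was the lowest for 8 of 10 in thrombin 48 h (39.2% of all genes) and in control 24 h (36.1%), for 7 of 10 in thrombin 4 h (38.6%) and for 4 of 10 in control 48 h (34.6%). Over the 6 groups that came to 46 of 60 gene and group pairs for number 12, 9 for number 13 and 5 for number 14. The highest library was number 14 in 37 of the 60 pairs, number 13 in 19 and number 12 in 4.

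The median deviation of the 10 genes from their group mean was -0.40 log2 in the thrombin 24 h library 12 and -0.33 in the control 4 h library 12, and 0.31 in the control 4 h library 13, while the median over all genes was 0.00, 0.00 and 0.01 in these libraries. The control 4 h library 13 was the highest of its group for 9 of the 10 genes (28.8% of all genes) and had the largest total of the series, 23270601 counts. The control 4 h and thrombin 24 h libraries 12 had 16463882 and 15472064 counts. The part of depth in this spread was not tested. The sources used here do not say what the numbers stand for.

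**Figure D4:**
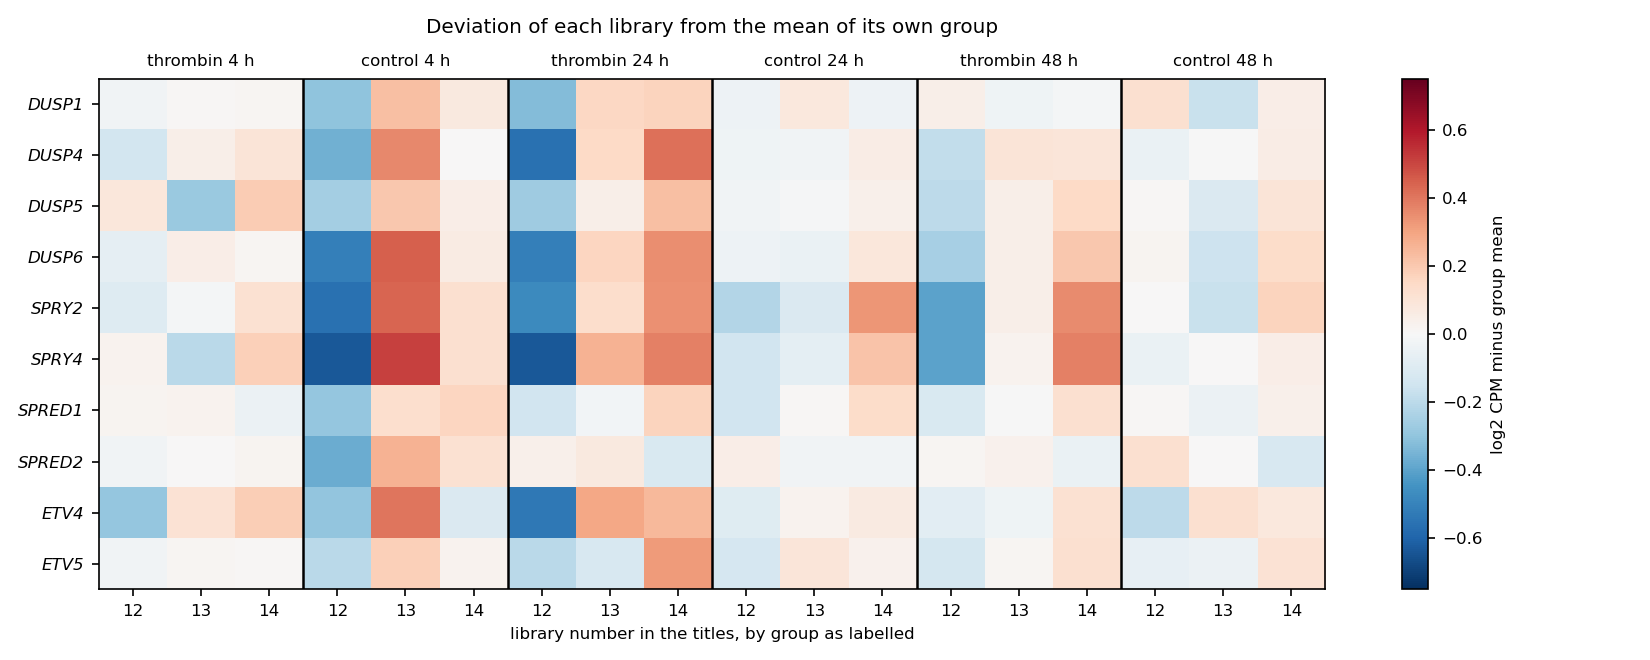
Log2 CPM of each gene in each library minus the mean of its group, blue below and red above, with groups in columns and the library numbers 12, 13 and 14 within them. The number 12 columns of control 4 h and thrombin 24 h are blue for 10 and 9 of the 10 genes, with medians of -0.33 and -0.40.

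The calls were repeated without all 6 libraries of each number in turn, which leaves 2 libraries per group. Number 12 was most often the low one for these same genes, as described above, so what its removal gives is a description of the other 12 libraries and no separate support. Without number 13 or number 14, 0 of the 10 genes were called at 4 h, against 0.664% and 3.39% of all genes. At 24 h, 0 were called without number 13 (6.13% of all genes) and 1, ETV5, without number 14 (10.7%). The difference of the thrombin effects, 24 h minus 4 h, was called for 2 genes in each of these fits: DUSP1 and ETV4 without number 13 (10.4% of all genes), and DUSP1 and ETV5 without number 14 (15.8%).

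Without number 12, 6 of the 10 genes were called at 4 h, against 23.2% of all genes: DUSP1 (-0.67), SPRY4 (-0.91), SPRED1 (-0.39), DUSP4 (-0.38) and DUSP5 (-0.34) were lower in thrombin, and ETV4 (0.59) was higher, with edgeR adjusted p from 1.81e-05 to 0.0379. At 24 h, 3 were called, all higher in thrombin (8.74% of all genes were called higher): DUSP1 (0.66), SPRED1 (0.36) and SPRY4 (0.50), with edgeR adjusted p from 1.76e-05 to 0.0309, and ETV5 was not called (-0.29, edgeR adjusted p = 0.0719). The difference of 24 h minus 4 h was called for 7 of the 10, against 29.4% of all genes: the 5 genes lower at 4 h had positive differences, of 0.47 for DUSP5 to 1.41 for SPRY4, and ETV4 (-0.88) and ETV5 (-0.47) negative ones. At 48 h 0 of the 10 were called, against 0.0326% of all genes. So the number of genes called at 4 h ran from 0 to 6 with the number left out.

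Likeness between genes was described by the root mean square difference of their centred log2 CPM over the 18 libraries, where 0 would be the same profile; the genes share library, depth and group. Of all tested genes DUSP6 was the nearest to SPRY2 (0.157), and outside the 10 the nearest to SPRY2 were PTX3 (0.168), PHLDA1 (0.178) and FOXL1 (0.181). DUSP6 was nearest to ANTXR2 (0.137), MAFF (0.143) and MMP14 (0.145). SPRY4 was nearest to STC1 (0.163), ITGA2 (0.172) and PHLDA1 (0.184), so that PHLDA1 was among the 3 nearest genes of both Sproutys. The nearest gene to DUSP4 was SOX9 (0.124), followed by PRDM8 (0.134) and RAPGEF3 (0.142). Without TMM factors, SOX9, which is also on the cholangiocyte list, ranged from 121 to 263 CPM. On the same scale, KRT7 of that list ranged from 4.34 to 9.30 CPM, and EPCAM, KRT19, CFTR and CDH1 each stayed at or under 1.34 CPM.

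DUSP1 was nearest to the cytoskeletal linker genes PLEC (0.130) and FLNA (0.134) and to KLHL29 (0.134), and DUSP5 to MTHFD1 (0.133), MBP (0.150) and BCL6 (0.150). SPRED1 had the closest neighbours of the 10, with IDH3A (0.0724), MCL1 (0.0738) and CDC42EP3 (0.0757), followed by SPRED2 with UBAP2L (0.0787) and ANKH (0.0835). These small values go with the small SD of both genes over the libraries, 0.181 for SPRED1 and 0.164 for SPRED2. ETV4 was nearest to TRPV2 (0.145), FBXL16 (0.188) and GEM (0.189), and ETV5 to PRNP (0.108), STAMBPL1 (0.114) and HHEX (0.120). ETV4 and ETV5 lay farther from each other (0.226) than from those genes.

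Among other genes that ERK is known to induce, 0 rose and 6 fell of 19 tested at 4 h (5.52% of all genes were called lower), and 8 rose and 0 fell at 24 h (9.05% called higher), with none called at 48 h. Their median log2 fold change was -0.28 at 4 h, 0.42 at 24 h and 0.07 at 48 h, and the difference of 24 h minus 4 h was called higher for 12 of the 19 and lower for none, against 13.6% and 14.3% of all genes. FOSL1, which encodes an AP-1 subunit, measured 258 ± 40.7 CPM in thrombin 4 h and 469 ± 103 CPM in control 4 h (SD, n = 3 each; -0.86 ± 0.16, edgeR adjusted p = 0.00175). The cytokine gene LIF fell by 1.17 ± 0.24 at 4 h (edgeR adjusted p = 0.00325) and rose by 2.24 ± 0.23 at 24 h, to 40.0 ± 7.31 CPM in thrombin against 8.43 ± 1.04 CPM in control (edgeR adjusted p = 1.15e-06). MYC fell by 0.36 ± 0.08 at 4 h (edgeR adjusted p = 0.00478) and rose by 0.78 ± 0.08 at 24 h (edgeR adjusted p = 1.43e-07). HBEGF, an EGF receptor ligand, rose by 0.95 ± 0.13 at 24 h (edgeR adjusted p = 6.71e-06), and the receptor gene EPHA4 fell by 0.56 ± 0.11 at 4 h and rose by 0.69 ± 0.11 at 24 h (edgeR adjusted p = 0.00172 and 9.44e-05). Of the 10 genes, 5 had negative values at 4 h and positive ones at 24 h (DUSP1, DUSP4, DUSP5, SPRY4 and SPRED1), 3 had the reverse (SPRED2, ETV4 and ETV5), and DUSP6 and SPRY2 were negative at both times. Of these, DUSP1 was called at both times, ETV4 at 4 h only, and SPRED1 and ETV5 at 24 h only.

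Of the 6 other MAP kinase phosphatase genes, 4 were tested; 1 of these was called at 4 h and 2 at 24 h, against 11.8% and 17.6% of all genes. DUSP10, a phosphatase of p38 and JNK, fell at 4 h (-0.43 ± 0.11, edgeR adjusted p = 0.0106) and rose at 24 h, to 52.6 ± 5.29 CPM in thrombin against 34.0 ± 2.19 CPM in control (0.63 ± 0.11, edgeR adjusted p = 0.00018). DUSP16, a JNK phosphatase, fell at 24 h (-0.44 ± 0.11, edgeR adjusted p = 0.00712) and at 4 h stood just outside the threshold (0.34 ± 0.11, edgeR adjusted p = 0.0504). The 10 further family members and negative regulators gave 2 higher and 1 lower at 4 h, 0 higher and 4 lower at 24 h, and none at 48 h, so 3 of 10 were called at 4 h, against 11.8% of all genes, and 4 of 10 at 24 h, against 17.6%. SPRED3, the third SPRED gene, was higher at 4 h (0.43 ± 0.14, edgeR adjusted p = 0.0398) and lower at 24 h (-0.52 ± 0.14, edgeR adjusted p = 0.0106), the signs of SPRED2.

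ETV1, the third PEA3-subfamily gene, fell to 19.97 ± 5.02 CPM in thrombin 24 h, against 38.6 ± 5.69 CPM in control 24 h (-0.95 ± 0.26, edgeR adjusted p = 0.0193), the sign of ETV4 and ETV5. ERF, an ETS repressor that ERK exports from the nucleus, rose at 4 h (0.39 ± 0.10, edgeR adjusted p = 0.0121) and fell at 24 h (-0.38 ± 0.10, edgeR adjusted p = 0.00808). The EGF receptor inhibitor gene ERRFI1 fell at 4 h (-0.38 ± 0.11, edgeR adjusted p = 0.0233). SPRY1 was called lower at 24 h (edgeR adjusted p = 0.00331) at a low level, 0.367 ± 0.326 CPM in thrombin and 1.88 ± 0.803 CPM in control (SD, n = 3 each).

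Of 19 RAS-ERK core genes, kinases and adaptors of the cascade, 2 rose and 0 fell at 4 h (11.8% of all genes were called), 4 rose and 2 fell at 24 h (17.6%), and none was called at 48 h. MAPK3, which encodes ERK1, measured 149 ± 20.4 CPM in thrombin 4 h and 121 ± 5.49 CPM in control 4 h (0.31 ± 0.10, edgeR adjusted p = 0.0427), and 113 ± 13.9 CPM in thrombin 24 h and 145 ± 7.44 CPM in control 24 h (-0.36 ± 0.10, edgeR adjusted p = 0.0120). The exchange factor gene SOS2 rose at 4 h (0.30 ± 0.09, edgeR adjusted p = 0.0359). At 24 h, NRAS (0.40 ± 0.10, edgeR adjusted p = 0.00745), PTPN11, which encodes the phosphatase SHP2 (0.29 ± 0.08, edgeR adjusted p = 0.0156), and MAP2K1, which encodes MEK1 (0.28 ± 0.09, edgeR adjusted p = 0.0386), rose.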

How the data were processed

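Gene-level counts were measured in 18 poly(A)-enriched RNA-seq libraries of LX-2 cells, 3 in each of 6 groups taken from the labels. The authors deposited raw counts per gene symbol. The submitters' processing notes name the build GRCh38 (hg38) and the tools Bowtie2 2.5.4, SAMtools 1.21, cutadapt 4.9 and DESeq2. No source used here says how reads were assigned to genes; Bowtie2 alone would lose reads over splice junctions if it aligned to the genome. All columns were matched to libraries by name, and 0 rows lacked a gene name.

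The deposited counts were fitted in edgeR 4.0.16 (R 4.3.3): filterByExpr (minimum count 10, minimum total 15; 15353 genes, at least 99.9% of each library's counts), TMM scaling (factors 0.945 to 1.031), and a robust quasi-likelihood fit of a mean per group over all libraries. Tests were two-sided, with Benjamini-Hochberg adjustment across all 15353 genes, and standard errors were derived from the F statistics. CPM are TMM-scaled, except where marker values are given without TMM factors. Log2 CPM for likeness and spread used a prior count of 2. The alternatives were DESeq2 1.42.0, other scalings, no filter, only the groups compared, a replicate block, and leaving out libraries or library numbers. The test was checked on simulated data. No 2 libraries of the same group agreed within counting noise (chi-square per gene 2.92 to 17.7). Libraries of different groups were not compared in this way.

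The members and lists were chosen with earlier results of these data known. Named beside the members are up to 4 genes of each list with the smallest adjusted p per time and the 3 genes most like each member; 1 of these is not reported here. Lists are described by counts, with no test of the list.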

Additional observations from a re-analysis of the deposited data

Results flagged for a closer look

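The test of the difference of thrombin effects between 24 h and 4 h put 5 of the 10 genes on this list, and it called 28% of all genes tested. DUSP1 differed by 1.08 on the log2 scale and SPRED1 by 0.60, both higher at 24 h. ETV4 differed by -1.06, ETV5 by -0.59 and SPRED2 by -0.41, all lower at 24 h. In 8 of the 12 fits that left out 1 library, the SPRED2 call was lost.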

How the results depend on the processing

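Leaving out single libraries or all libraries of 1 number changed how many genes were called in most comparisons. Of the results for single genes in these fits, 359 stayed the same, 58 lost a call, 14 gained a call and 34 turned sign. The number of the 10 genes called ran over 0 to 6 at 4 h (2 with all libraries), 0 to 3 at 24 h (3), 2 to 7 for the effect at 24 h minus 4 h (5), 0 to 2 for 48 h minus 24 h (0), 0 to 6 for 48 h minus 4 h (0), 0 to 5 for control 24 h against control 4 h (2), 0 to 1 for control 48 h against control 24 h (0), 1 to 7 for thrombin 24 h against thrombin 4 h (3) and 0 to 2 for thrombin 48 h against thrombin 24 h (0); it was 0 throughout for thrombin against control at 48 h and for the groups crossed in time. Fits without all number 13 or all number 14 libraries called 0 of the 10 at 4 h, and the genes called at 4 h were then 102 and 520, against 3565 without number 12 and 1813 with all. In the fits that left out libraries, all genes called ran from 941 to 2501 of 15353 at 24 h (2700 with all libraries). At 48 h they ran from 0 to 5 (0). For 24 h minus 4 h they ran from 1603 to 4704 (4293). For 48 h minus 24 h and 48 h minus 4 h the ranges were 533 to 2270 (2126) and 0 to 1124 (97). Control 24 h against 4 h gave 381 to 2323 (2340), and control 48 h against 24 h 16 to 1130 (940). Thrombin 24 h against 4 h gave 588 to 2978 (2322), and thrombin 48 h against 24 h 346 to 1967 (1492). Some uncalled effects turned sign when libraries were left out: DUSP4 (-0.17 to 0.29), DUSP5 (-0.10 to 0.14), DUSP6 (-0.30 to 0.10) and SPRY2 (-0.28 to 0.11) at 24 h; DUSP5 (-0.34 to 0.053), DUSP6 (-0.34 to 0.13) and SPRY2 (-0.38 to 0.11) at 4 h; ETV5 (-0.11 to 0.016), SPRY2 (-0.027 to 0.34) and SPRY4 (-0.036 to 0.34) at 48 h; and DUSP5 (-0.057 to 0.47), DUSP6 (-0.32 to 0.38) and SPRY2 (-0.32 to 0.33) in 24 h minus 4 h. The near-zero DUSP6 value of 24 h minus 4 h was negative with DESeq2 (-0.0068), RLE (-0.0023), upper quartile scaling (-0.012) and the replicate block (-0.054), and DUSP5 at 24 h with upper quartile scaling (-0.012).

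With no filter on low counts, 5 of the 10 were called at 24 h, 3 for 48 h minus 24 h, 5 for 48 h minus 4 h, 1 for control 48 h against 24 h, 5 for thrombin 24 h against 4 h and 1 for thrombin 48 h against 24 h; SPRY4 was called at 4 h (-0.65, edgeR adjusted p = 1.61e-07). With only the groups compared, 2 were called for control 48 h against 24 h and 1 each for 48 h minus 24 h and 48 h minus 4 h. DESeq2 called 1 in each of these differences, RLE scaling 1 for 48 h minus 24 h and upper quartile scaling 1 for 48 h minus 4 h. The cause was not tested. At 48 h all genes called were 0, against 14 with DESeq2, 50 with no filter and 4 with only the groups compared. Over alternatives keeping every library compared, all genes called ran from 2678 to 2884 at 24 h (2700 in the main fit). They ran from 2111 to 2462 for 48 h minus 24 h (2126) and from 86 to 381 for 48 h minus 4 h (97). For control 48 h against 24 h the range was 942 to 1583 (940). Thrombin 24 h against 4 h gave 1626 to 2569 (2322), and thrombin 48 h against 24 h 1320 to 1651 (1492). The fit with no filter tested more genes. No scaling moved the median of all genes by over 0.1.

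Over all tested genes, same-numbered thrombin and control libraries did not deviate together (correlations from -0.09 to 0.06). Over the 10 genes these correlations ran from -0.43 to 0.63, and number 12 was the lowest in 46 of 60 gene and group pairs. The replicate block called ETV4 at 24 h (-0.49, edgeR adjusted p = 0.00754), SPRY4 at 4 h (-0.60, edgeR adjusted p = 0.0459) and SPRY4 in 24 h minus 4 h (0.88, edgeR adjusted p = 0.0196), 1 of the 10 for control 48 h against 24 h, 2 for 48 h minus 24 h and 1 for 48 h minus 4 h.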
